A study of Mus musculus with 8 samples.

Results

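The genes described here encode the laminin chains, nidogens and heparan sulfate proteoglycans of basement membranes, measured in mouse fibroblasts on bead arrays. They were the 10 genes Lama2, Lama4, Lama5, Lamb1, Lamb2, Lamc1, Nid1, Nid2, Hspg2 and Agrn, and every probe with one of these symbols in the probe-to-gene table was taken. The table held 1 probe each for 9 of them and none for Lama5, of 16590 genes with a probe in all. After the filter on low values 8 of these genes were among the 8885 tested, and Lama4 did not pass it.

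Basement membranes are thin sheets of matrix at the surface of epithelia, vessels, fat cells, nerve and muscle, the cardiomyocyte included. Laminins are trimers of an α, a β and a γ chain that polymerise on the cell surface, where integrins and dystroglycan hold them. Nidogens link the laminin network to that of type IV collagen, and the heparan sulfate proteoglycans perlecan (Hspg2) and agrin (Agrn) bind both networks, growth factors and dystroglycan. Fibroblasts are known to secrete several of these proteins, which then become part of the sheets around neighbouring cells.

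The cells were NIH 3T3, an established line of embryonic mouse fibroblasts, and all groups were kept for a day in Claycomb media, the culture media of cardiomyocytes. The groups were fibroblasts with media supernatant, which is cardiomyocyte media after ultracentrifugation (2 arrays), with Claycomb media transferred from cardiomyocytes (3 arrays) and with fresh, unused Claycomb media (3 arrays). The cardiomyocytes that conditioned the media were HL-1 cells, a line derived from adult mouse heart. The design asks which fibroblast genes respond to what cardiomyocytes release, and which of these responses stay once the material that ultracentrifugation pellets is gone. No array of centrifuged unused media or of fibroblasts in their own growth media was analysed here. The study describes RNA from wells of cultured cells without saying whether the wells were separate experiments, so the p-values cover only how much these arrays vary. The RNA came from whole wells, so a change in the share of expressing cells and a change in RNA per cell cannot be told apart.

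An array detected 10956 to 11758 of its 25697 probes with the supernatant, 10648 to 11576 with cardiomyocyte media and 10545 to 11157 with unused media. Replicate 2 of the supernatant and replicates 2 and 3 of cardiomyocyte media were hybridised on chip 2, and the remaining 5 arrays, those of unused media among them, on chip 1. The raw arrays of chip 2 were dimmer, with median intensities between 55.8 and 57.5, while those of chip 1 had 102 to 109. Probes with a high detection p-value had medians of 43.9 to 44.9 there, against 83.1 to 86.0 for chip 1. Each chip 2 array detected more probes, 11520 to 11758, where a chip 1 array detected 10545 to 11157. The part of this background gap in the values of dim probes was not tested. With chip in the model 371 of 8885 genes differed between the chips, none of them among the 8 tested here. All 13 fibroblast markers with a probe were detected on every array, and their summed signal was 43236 to 53800 with the supernatant, 52601 to 65286 with cardiomyocyte media and 39755 to 46889 with unused media. Of 17 cardiomyocyte markers with a probe, 13 were detected on no array with the supernatant, 10 on none with cardiomyocyte media and 11 on none with unused media. The 10 that were undetected in all groups were the contractile and sarcomere genes Actc1, Csrp3, Myl2, Myl3, Tnni3 and Ttn, the calcium-handling genes Pln and Ryr2, Hopx and Nppb, while 2 of the 17, Myl4 and Tnnc1, were detected on all arrays of each group. Of the 17 cardiomyocyte markers 7 were tested, and none of these passed in any comparison. The summed signal of that list was 315 to 347 with the supernatant, 347 to 426 with cardiomyocyte media and 369 to 601 with unused media.

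To show the regulatory sequence in front of these genes, the 250 bases before the transcript start were read from RefSeq promoters of GRCm38.p6. Windows existed for 7 of the 10 genes, and 8 windows in all because Agrn had a pair of them. Hspg2 is printed because it passed the test with cardiomyocyte media, Agrn because it encodes the related proteoglycan that did not, and Nid1 because it holds both kinds of box found and did not pass in any comparison. The stretches lie outside the annotated genes, at chr4:137468553-137468750 on the plus strand for Hspg2, chr4:156197534-156197738 on the minus strand for Agrn and chr13:13437352-13437601 on the plus strand for Nid1. Capitals mark GC boxes (GGGCGG on either strand, the site known for Sp1, with overlapping copies in Agrn) and, in Nid1, also a CCAAT box (CCAAT on either strand, the site known for NF-Y).
Hspg2: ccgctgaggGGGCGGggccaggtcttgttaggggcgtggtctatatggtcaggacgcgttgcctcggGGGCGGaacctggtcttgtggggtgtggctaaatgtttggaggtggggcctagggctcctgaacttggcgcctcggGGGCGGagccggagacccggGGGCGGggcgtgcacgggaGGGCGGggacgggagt
Agrn: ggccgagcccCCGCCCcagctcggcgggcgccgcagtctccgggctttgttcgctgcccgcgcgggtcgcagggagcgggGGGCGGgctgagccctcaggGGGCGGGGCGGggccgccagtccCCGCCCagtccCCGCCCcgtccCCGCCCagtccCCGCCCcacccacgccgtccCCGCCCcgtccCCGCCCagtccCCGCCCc
Nid1: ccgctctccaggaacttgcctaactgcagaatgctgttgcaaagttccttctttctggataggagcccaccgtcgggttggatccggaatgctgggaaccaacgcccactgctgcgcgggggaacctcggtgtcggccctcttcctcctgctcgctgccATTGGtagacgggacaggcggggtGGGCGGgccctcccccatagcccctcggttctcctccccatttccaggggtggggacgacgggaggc

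A GC box occurred in the windows of 5 of the 7 genes with one, Agrn, Hspg2, Lama5, Lamb1 and Nid1, and in 32.7% of all 32851 promoter windows of the same length. The first Agrn window held 12 copies, 11 of them in the stretch printed, and the Hspg2 window 5, against 1 in Nid1 and 0 in Lama2 and Lamb2. GC content was 83.6% for that Agrn window, 70.0% for Hspg2, 64.4% for Nid1, 47.2% for Lama2 and 43.6% for Lamb2, with a median of 52.4% over all windows. A CCAAT box was present in Lamb1 and Nid1 and in 33.8% of all windows. Neither the AP-1 site TGANTCA (6.75% of all windows), nor the antioxidant response element TGACNNNGC (10.2%), nor the SMAD element GTCTAGAC (0.167%) occurred in any of the 8 windows. Of the genes that passed the test, Hspg2 therefore had several GC boxes and Lama2, whose window lies almost wholly inside the annotated gene, had none of the sites searched. A match or its absence is a description of these letters alone.

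Signals are given in intensity units after background correction and quantile normalization, with the offset of 16 removed. Differences are on the log2 scale with that offset included, which draws the values of dim probes such as that of Lama2 towards 0. Adjusted p-values are from limma over all 8885 genes, and a gene passed at an adjusted p under 0.05. Each probe was read from 22 to 56 beads, and the standard error over beads was 2.52% to 14.6% of the intensity for these probes.

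Compared with unused media, cardiomyocyte media raised 2 of the 8 tested genes, the laminin chain gene Lama2 and the perlecan gene Hspg2, and lowered 0. Among all genes tested in this comparison 8.36% passed, 4.01% higher and 4.36% lower, so that 2 higher among 8 stands beside a background of 4.01%. The median log2 difference of the 8 genes was 0.40, against -0.01 over all tested genes, and 6 of them had a value above 0. At an unadjusted p under 0.05 there were 4 of 8, where 25.1% of all genes were. With the supernatant none of the 8 passed against unused media, where 2.17% of all genes did (0.732% higher and 1.44% lower), and 3 had an unadjusted p under 0.05 (11.9% of all genes). Their median difference was 0.26, against -0.00 for all genes, with 7 above 0. None passed between the supernatant and cardiomyocyte media, where 4.9% of all genes did (1.76% higher and 3.14% lower), and 2 had an unadjusted p under 0.05 (15.2% of all genes). Both comparisons with unused media rest on the same 3 arrays of unused media. When arrays were scaled to their medians in place of quantile normalization, the split of all calls with cardiomyocyte media was 369 higher and 111 lower, against 356 and 387, and with the supernatant it was 53 and 10, against 65 and 128. That scaling put the median of all genes at 0.26 with the supernatant and at 0.21 with cardiomyocyte media.

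**Figure D1:**
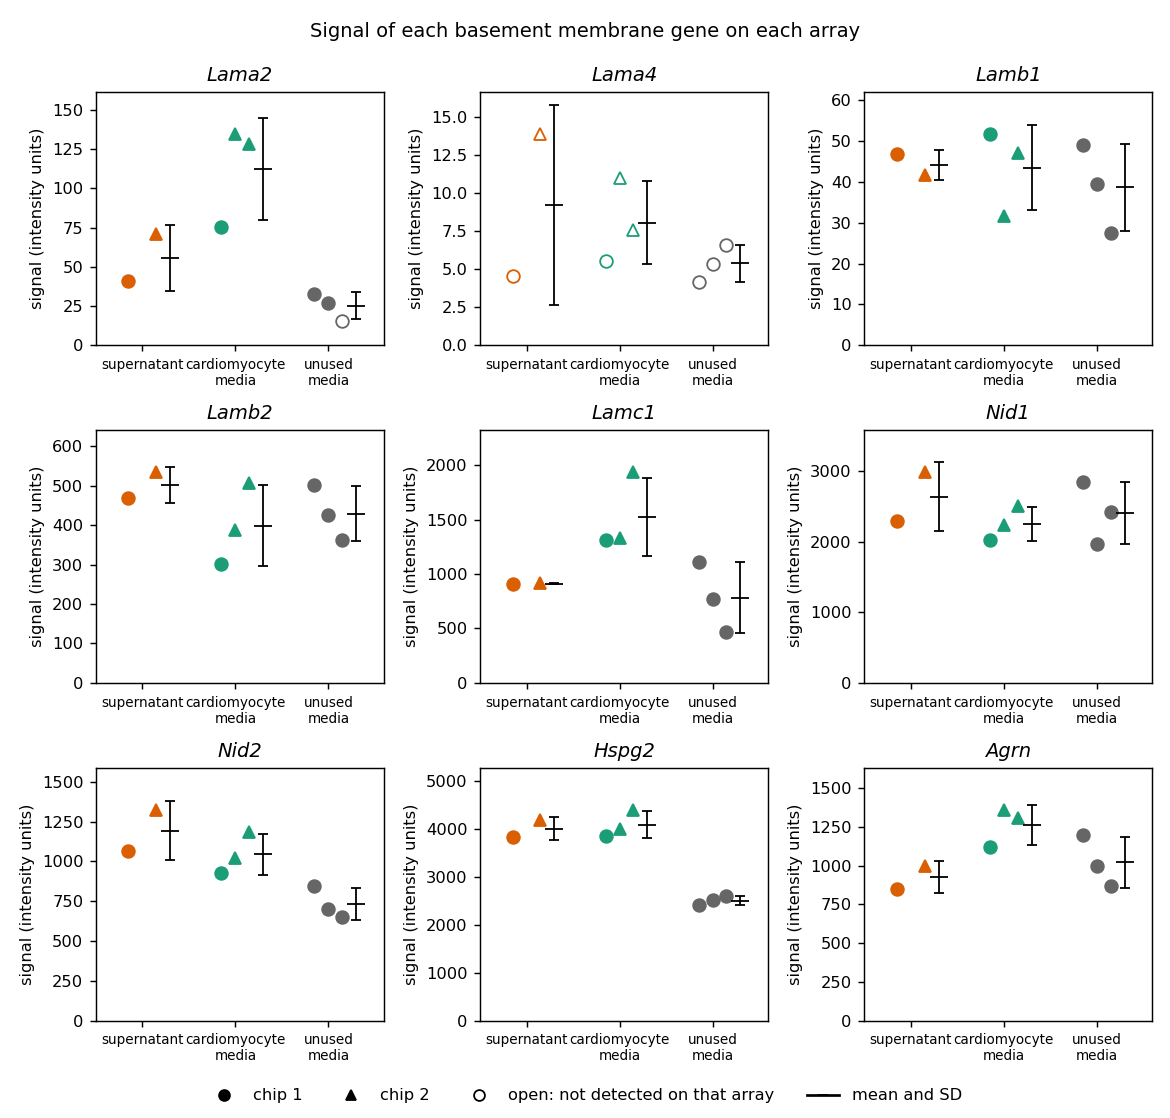
Signal (intensity units, linear axis) of each gene with a probe on each array, by group from left to right supernatant, cardiomyocyte media and unused media; circles are chip 1, triangles chip 2, open symbols arrays on which the probe was not detected, and bars the mean and SD. The 3 groups overlap for Lamb1, Lamb2 and Nid1, while for Hspg2 all 5 arrays with cardiomyocyte media or supernatant (3842 to 4408.5) lie above the 3 with unused media (2409 to 2606).

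The laminin α chains were represented by Lama2 alone. Lama2 on chromosome 10 encodes the α2 chain of the laminins of muscle and peripheral nerve, whose loss is known to cause a congenital muscular dystrophy. Its signal was 40.8 and 70.6 with the supernatant, 75.0, 134 and 128 with cardiomyocyte media, and 32.7, 27.1 and 15.7 with unused media. The 3 groups did not overlap, with cardiomyocyte media highest and unused media lowest, and the lowest array of all, unused media replicate 3, was the only one on which the probe was not detected. The means were 55.7 ± 21.1 with the supernatant (SD, n = 2), 112 ± 32.6 with cardiomyocyte media (n = 3) and 25.2 ± 8.70 with unused media (n = 3). Cardiomyocyte media exceeded unused media by a log2 difference of 1.63 (standard error 0.25, 95% interval 1.07 to 2.19, adjusted p = 0.00256). The supernatant differed from unused media by 0.79 (0.16 to 1.42, adjusted p = 0.290) and from cardiomyocyte media by -0.84 (-1.46 to -0.21, adjusted p = 0.152). Thus the rise with cardiomyocyte media passed, and neither comparison of the supernatant did. Without single arrays the supernatant minus cardiomyocyte media difference lay between -1.14 without supernatant replicate 2 and -0.53 without supernatant replicate 1, and passed only without cardiomyocyte media replicate 1 (-1.07, adjusted p = 0.0338). The supernatant minus unused media difference lay between 0.49 without supernatant replicate 2 and 1.10 without supernatant replicate 1.

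Within both treatments the chip 2 arrays of Lama2 were the higher ones, and the fitted chip difference was 0.66 (adjusted p = 0.0829). With chip as a block the difference of cardiomyocyte from unused media was 1.19 (adjusted p = 0.0105). On chip 1 alone, where 1 array of cardiomyocyte media stands against 3 of unused media, it was 1.17 (adjusted p = 0.123). It was 0.80 without background correction, 1.10 with an offset of 50 and 2.22 with the authors' normalized values, and it passed in each of these. Lama2 was not alone in the chip order. Within both treatments the chip 2 arrays were also the higher ones for Lamb2, Lamc1, Nid1, Nid2, Hspg2 and Agrn, but not for Lamb1. The fitted chip differences of those genes lay between 0.12 (Hspg2) and 0.38 (Lamb2), and that of Lamb1 was -0.23. All arrays of unused media were on chip 1, so this order and a rise over unused media are partly tied.

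Lama4 encodes the α4 chain found in the walls of blood vessels, in fat and in heart. Its probe was detected on none of the 8 arrays (detection p between 0.0827 and 0.976, signals between 4.16 and 13.9), so no comparison was made. Lama5, which encodes the α5 chain of many adult epithelia and vessels, had no probe.

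Neither β chain gene passed the test in any comparison. Lamb1 encodes the β1 chain, widespread during development, and Lamb2 the β2 chain of the neuromuscular synapse and the kidney filter. Lamb1 signals were 46.8 and 41.6 with the supernatant, 51.7, 31.8 and 47.2 with cardiomyocyte media and 49.1, 39.4 and 27.6 with unused media. Lamb2 signals were 470.0 and 535 with the supernatant, 303, 389 and 506 with cardiomyocyte media and 502, 425 and 362 with unused media. For both genes the 3 groups overlapped. The log2 difference between cardiomyocyte and unused media was 0.13 for Lamb1 (95% interval -0.32 to 0.57, adjusted p = 0.733). For Lamb2 it was -0.12 (-0.58 to 0.34, adjusted p = 0.756), and 0.16 when arrays were scaled to their medians. With the supernatant the values against unused media were 0.16 for Lamb1 (-0.34 to 0.66) and 0.23 for Lamb2 (-0.29 to 0.75). Between the supernatant and cardiomyocyte media they were 0.03 for Lamb1 (-0.47 to 0.53) and 0.35 for Lamb2 (-0.17 to 0.86). These intervals reach up to 0.86, so equal levels were not shown.

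Lamc1 on chromosome 1 encodes the γ1 chain, the partner of most α and β chains and the one that binds nidogen. Its signals were 909 and 914 with the supernatant, 1309, 1332 and 1937 with cardiomyocyte media, and 1111, 774 and 468 with unused media. All arrays with cardiomyocyte media were above all others, while the supernatant lay within the range of unused media. The log2 difference between cardiomyocyte and unused media was 1.01 (standard error 0.28, 95% interval 0.39 to 1.62, adjusted p = 0.0504), just short of the threshold. The supernatant differed by 0.30 from unused media (-0.40 to 0.99, adjusted p = 0.752) and by -0.71 from cardiomyocyte media (-1.40 to -0.02, adjusted p = 0.311). Unused media replicate 3 had the lowest signal for Lamc1, and on it the bead error of this probe was 13.9%, while the median over all these probes and arrays was 4.82%. The whole array was noisier, with a median bead error of 9.34% over its detected probes, against 4.26% to 5.19% on the other arrays. Both comparisons with unused media rest partly on that array. Without that array the difference between cardiomyocyte and unused media was 0.68 (adjusted p = 0.142), and that between the supernatant and unused media was -0.03. Under 9 of the 25 alternatives Lamc1 passed with cardiomyocyte media, at adjusted p-values down to 0.0155 with median scaling. They included the omission of unused media replicate 1 (1.29, adjusted p = 0.0222) and of cardiomyocyte media replicate 1 (1.10, adjusted p = 0.0307).

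Among the nidogens, the intervals of Nid2 lay above 0 in both treatments and those of Nid1 did not. Nid1 and Nid2 encode homologous linkers with overlapping roles in mice. Nid2 on chromosome 14 had signals of 1063 and 1325 with the supernatant, 926, 1023 and 1182 with cardiomyocyte media, and 846, 704 and 650.4 with unused media. Every array of either treatment was above every array of unused media, and the treatments overlapped each other. The difference from unused media was 0.69 with the supernatant (standard error 0.20, 95% interval 0.24 to 1.14, adjusted p = 0.160) and 0.50 with cardiomyocyte media (standard error 0.18, 0.10 to 0.90, adjusted p = 0.119), so neither passed. With chip as a block these values were 0.55 (adjusted p = 0.271) and 0.32 (adjusted p = 0.421), a move of over 1.5 times for cardiomyocyte media.

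Nid1 on chromosome 13 had signals of 2299 and 2992 with the supernatant, 2033, 2238 and 2514 with cardiomyocyte media, and 2848, 1965 and 2423 with unused media. The 3 groups overlapped. Its differences from unused media were 0.14 with the supernatant (-0.34 to 0.61, adjusted p = 0.850) and -0.08 with cardiomyocyte media (-0.51 to 0.35, adjusted p = 0.822). With median scaling the value with cardiomyocyte media was 0.20.

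Of the heparan sulfate proteoglycan genes, that of perlecan passed the test with cardiomyocyte media and that of agrin did not, and the difference between the genes was not tested. Hspg2 on chromosome 4 encodes perlecan, the large proteoglycan of nearly all basement membranes, which holds fibroblast growth factors through its heparan sulfate chains. Its signals were 3842 and 4190.2 with the supernatant, 3869, 4015.5 and 4408.5 with cardiomyocyte media, and 2409, 2517 and 2606 with unused media. Both treatments lay wholly above unused media and overlapped each other, and the replicates were close, with coefficients of variation of 6.12% with the supernatant, 6.81% with cardiomyocyte media and 3.93% with unused media. Cardiomyocyte media exceeded unused media by a log2 difference of 0.70 (standard error 0.16, 95% interval 0.36 to 1.04, adjusted p = 0.0181), a fold of 1.63. The supernatant exceeded unused media by 0.67 (standard error 0.17, 0.29 to 1.05), which did not pass (adjusted p = 0.0893). Between the supernatant and cardiomyocyte media the difference was -0.03 (-0.41 to 0.35, adjusted p = 0.975).

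The Hspg2 value with cardiomyocyte media varied little, between 0.62 and 0.995 over all alternatives, but its call was lost under 6 of 25. They were chip as a block (0.62, adjusted p = 0.0697), chip 1 alone (0.62, adjusted p = 0.314) and the omission of unused media replicate 1 or 2 or of cardiomyocyte media replicate 2 or 3 (adjusted p between 0.0609 and 0.0715). The supernatant value passed under 6 of 25 alternatives, with adjusted p-values between 0.0112 without background correction and 0.0458 with only probes detected on all arrays.

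Agrn, also on chromosome 4, encodes agrin, which clusters acetylcholine receptors at the neuromuscular synapse and binds dystroglycan in heart and skeletal muscle. Its signals were 852 and 999 with the supernatant, 1121, 1361 and 1308 with cardiomyocyte media, and 1199, 997 and 871 with unused media. Cardiomyocyte media overlapped unused media, and so did the supernatant, but all arrays with the supernatant were below all with cardiomyocyte media. The difference between cardiomyocyte and unused media was 0.31 (95% interval -0.09 to 0.70, adjusted p = 0.309), and it was 0.15 with chip as a block, 0.14 on chip 1 alone, 0.59 with median scaling and 0.20 without unused media replicate 3. That between the supernatant and unused media was -0.13 (-0.58 to 0.31, adjusted p = 0.839), and 0.20 with median scaling. The supernatant was 0.44 below cardiomyocyte media (-0.44, -0.88 to 0.00, adjusted p = 0.330).

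**Figure D2:**
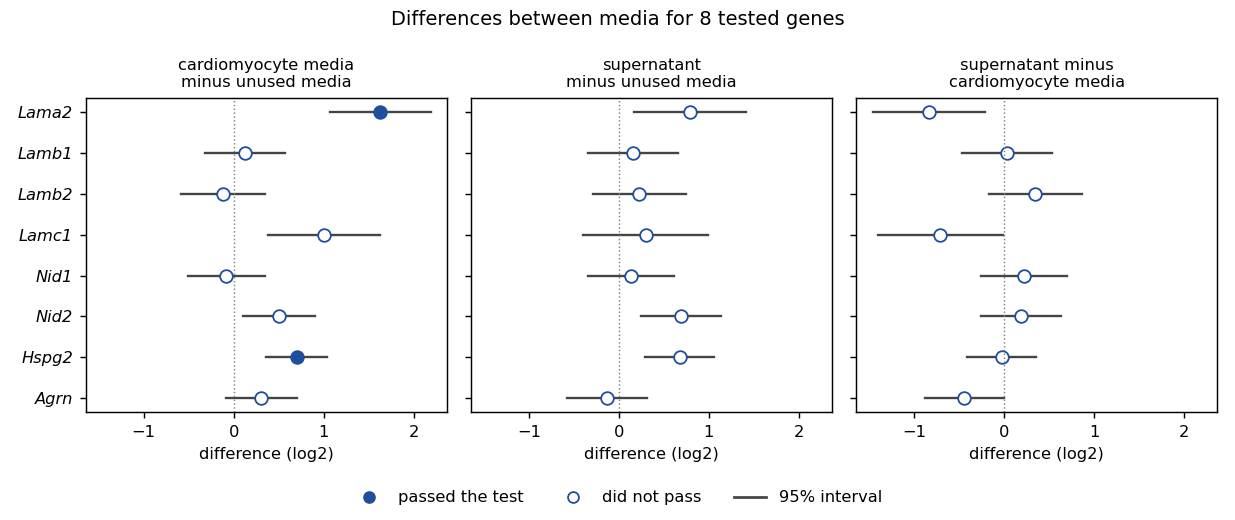
Log2 difference (points) with its 95% interval (lines) for the 8 tested genes, one panel for each comparison; filled points passed the test. Only Lama2 (1.63) and Hspg2 (0.70) in the panel of cardiomyocyte minus unused media are filled, and in the panel of supernatant minus cardiomyocyte media the intervals of Lama2 and Lamc1 lie below 0 without passing.

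By the separation of arrays, 4 of the 8 genes were wholly higher with cardiomyocyte than with unused media (Lama2, Lamc1, Nid2 and Hspg2), which held for 13.2% of all genes (28.6% were apart in either direction). With the supernatant 3 were wholly higher than with unused media (Lama2, Nid2 and Hspg2), as were 14.9% of all genes, with 31.3% apart in either direction. Between the supernatant and cardiomyocyte media 3 were wholly lower (Lama2, Lamc1 and Agrn), as were 15.4% of all genes, with 32.4% apart in either direction. Lama2 and Lamc1 thus had their highest arrays with cardiomyocyte media, whereas Nid2 and Hspg2 stood at overlapping levels in both treatments. No comparison between the supernatant and cardiomyocyte media passed the test, so a difference between these patterns was not shown.

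Over the 8 arrays, the log2 values of all 28 pairs of these genes correlated above 0, with a median r of 0.31 and a highest of 0.87. After group means were removed 25 of the 28 pairs (89.3%) still had r above 0, with a median of 0.59, while 50.5% of all gene pairs did, with a median of 0.01. Lama2 and Agrn had an r of 0.92 within groups. These arrays share groups and chips, so the values describe these 8 arrays only, and the part of chip in them was not tested. The tested genes whose pattern over the 8 arrays was most like that of Lama2 were H2-T23 (r = 0.987), Egfr (0.986) and St6gal1 (0.982). Those most like Hspg2 were Nras (0.973), Vav3 (0.973) and Acsl3 (0.972).

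**Figure D3:**
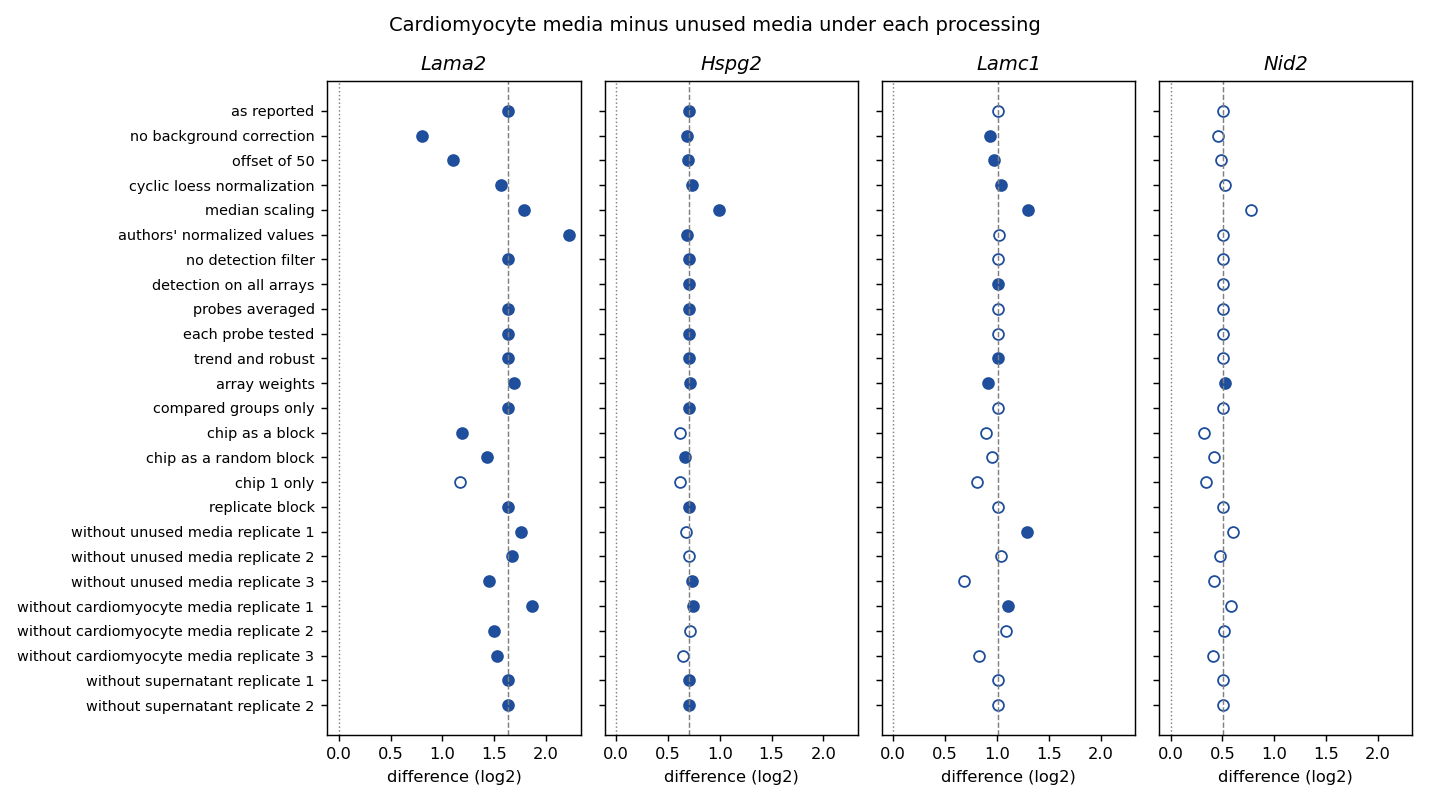
Log2 difference between cardiomyocyte media and unused media for Lama2, Hspg2, Lamc1 and Nid2 as reported (top row, dashed line) and under each alternative processing; filled points passed the test and open points did not. The Lama2 point lies between 0.80 and 2.22 and is missing where detection on all arrays was required, Hspg2 points keep within 0.62 to 0.995, and Lamc1 changes between filled and open.

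The partners of these genes in the sheet were taken from lists of related genes. Of all genes tested, 4.01% were called higher and 4.36% lower with cardiomyocyte than with unused media, the background for the counts of these lists. The shares were 0.732% and 1.44% for the supernatant against unused media, and 1.76% and 3.14% for the supernatant against cardiomyocyte media. With cardiomyocyte media, collagens of the basement membrane had 2 of 6 tested genes higher and 0 lower, with a median of 0.89. Both were chains of the type IV collagen network, Col4a1 at 0.88 (standard error 0.20, adjusted p = 0.0230) and Col4a2 at 1.24 (standard error 0.33, adjusted p = 0.0436). The other type IV chains tested, named to complete that family, did not pass. They were Col4a5 (0.29, adjusted p = 0.447) and Col4a6 (-0.45, adjusted p = 0.106). Col4a1 signals averaged 2516 ± 541 with the supernatant, 3494 ± 635 with cardiomyocyte media and 1883 ± 250.2 with unused media (SD, n = 2, 3 and 3). The Col4a1 call was lost under 4 of 25 alternatives, among them the omission of cardiomyocyte media replicate 3 or of replicate 1 or 3 of unused media (0.77 to 0.89, adjusted p between 0.0704 and 0.0900). That of Col4a2 was lost under 13, among them without any single array but cardiomyocyte media replicate 1 and unused media replicate 2 (0.77 to 1.44, adjusted p between 0.0550 and 0.148). With the supernatant 0 of the 6 passed against unused media (median -0.02), and 3 had a value above 0. Col4a2 was 1.02 there (adjusted p = 0.298) and Col4a1 0.41 (adjusted p = 0.521). Col15a1, a collagen that carries glycosaminoglycan chains, was lower with the supernatant than with cardiomyocyte media (-1.34, adjusted p = 0.0232). It was dim, averaging 18.3 ± 0.893 with the supernatant, 72.5 ± 20.5 with cardiomyocyte media and 32.0 ± 15.8 with unused media. Its value was -0.58 without background correction, and it dropped out where detection on all arrays was required. The call was lost under 5 of 24 alternatives. They included the omission of either supernatant array or of cardiomyocyte media replicate 3 (-1.37 to -1.25, adjusted p between 0.0818 and 0.146).

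Other glycoproteins of the basement membrane moved both ways. With cardiomyocyte media 1 of 9 tested rose and 1 fell, with a median of 0.25. The one that rose was Fbln1, fibulin-1, which binds nidogen and laminin. It averaged 39.4 ± 19.2 with the supernatant, 405 ± 72.3 with cardiomyocyte media and 30.5 ± 12.2 with unused media. Its difference was 3.19 against unused media (adjusted p = 2.13e-05) and -2.96 in the supernatant against cardiomyocyte media (adjusted p = 1.46e-04), and both calls held under all 24 alternatives that could test it, down to 0.75 and -1.17 where another, dimmer probe of the gene was read. Smoc1, a calcium-binding protein of these membranes, fell with cardiomyocyte media (-1.29, adjusted p = 0.0242), with means of 57.3 ± 8.51 with the supernatant, 20.0 ± 13.2 with cardiomyocyte media and 69.9 ± 27.6 with unused media. That call was lost without unused media replicate 1 (-1.04, adjusted p = 0.0974) or 2 (-1.38, adjusted p = 0.0540). Smoc1 was -0.61 without background correction, and dropped out where detection on all arrays was required. No other laminin chain gene on the list was tested, as none of the 3 with a probe passed the filter on detection.

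Receptors were not among the genes that passed. Of 14 tested integrins, dystroglycan components and other receptors of laminin and agrin, 0 rose and 0 fell in any of the comparisons, with medians of -0.08 with cardiomyocyte media and 0.29 with the supernatant. An unadjusted p under 0.05 was found for 2 of the 14 with cardiomyocyte media, 1 with the supernatant and 3 between the treatments. Among all genes the shares were 25.1%, 11.9% and 15.2%. Under the alternatives at most 2, 0 and 1 of the receptors passed in these comparisons. Dag1, which encodes dystroglycan, had -0.36 with cardiomyocyte media (adjusted p = 0.475), and Itgb1, the β1 integrin subunit, had 0.79 (adjusted p = 0.0957). Both were chosen after their values were seen. Among enzymes that build the sugar chains by which dystroglycan holds laminin, agrin and perlecan, 1 of 7 rose with cardiomyocyte media. It was Gmppb, which makes GDP-mannose (1.15, adjusted p = 0.00179), with means of 27.6 ± 1.44 with the supernatant, 53.5 ± 10.3 with cardiomyocyte media and 15.2 ± 2.84 with unused media. Gmppb was dim and, like Lama2, dropped out where detection on all arrays was required. Its call was lost on chip 1 alone (adjusted p = 0.104), and its value was 0.46 without background correction and 1.78 with the authors' normalized values.

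Enzymes that make or edit heparan sulfate, the chains that perlecan and agrin carry, had 2 of 11 tested higher with cardiomyocyte media and 0 lower, with a median of 0.33. Sulf1, an extracellular sulfatase that trims these chains, averaged 124 ± 19.6 with the supernatant, 314 ± 62.5 with cardiomyocyte media and 60.9 ± 6.80 with unused media. It rose by 2.09 with cardiomyocyte media (adjusted p = 4.97e-05), and was lower with the supernatant than with cardiomyocyte media (-1.23, adjusted p = 0.00539). The rise was called under all 25 alternatives, and the lower level with the supernatant was not called without supernatant replicate 2 (-1.08, adjusted p = 0.0838). Hs2st1, a sulfotransferase that acts during chain synthesis, rose by 0.63 with cardiomyocyte media (adjusted p = 0.0430) and by 0.84 with the supernatant (adjusted p = 0.0457), the only member of its list that passed with the supernatant. Each of these Hs2st1 calls was lost under 14 of 25 alternatives, the omission of any single array but cardiomyocyte media replicate 1 included (0.54 to 0.70 with cardiomyocyte media, adjusted p up to 0.164, and 0.75 to 0.90 with the supernatant, adjusted p up to 0.413).

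Proteases that cut basement membrane proteins had 4 of 11 tested higher with cardiomyocyte media (4.01% of all genes) and 0 lower, with a median of 0.50. The 3 with the smallest p were Plau, urokinase (4.42, adjusted p = 2.04e-04), Mmp9, a gelatinase that cuts type IV collagen (1.27, adjusted p = 0.00296), and Bmp1, which trims precursors of collagens and laminins (0.86, adjusted p = 0.0233). The remaining gene of the 4, Mmp2, was only just under the threshold (0.59, adjusted p = 0.0497). Plau averaged 447 ± 80.3 with the supernatant, 1572 ± 187 with cardiomyocyte media and 76.4 ± 60.8 with unused media. It dropped out where detection on all arrays was required. With the supernatant 2 of 11 were higher, Plau (2.63, adjusted p = 0.0309) and Ctsl, a lysosomal and secreted protease (0.78, adjusted p = 0.0477), with a median of 0.38. Mmp11 was the 1 gene of the list that was higher with the supernatant than with cardiomyocyte media (1.02, adjusted p = 0.0239). The Mmp9 call was lost on chip 1 alone (1.24, adjusted p = 0.136), and its value without background correction was 0.81. The Bmp1 call was lost on chip 1 alone as well (1.05, adjusted p = 0.185) and without replicate 2 or 3 of either cardiomyocyte or unused media (0.68 to 0.91, adjusted p up to 0.0756). With the supernatant the Plau call was lost without either supernatant array, unused media replicate 2 or cardiomyocyte media replicate 2 (2.45 to 2.88, adjusted p up to 0.236). That of Ctsl was lost without any single array but cardiomyocyte media replicate 1 (0.70 to 0.85, adjusted p up to 0.466). The Mmp11 call was lost without either supernatant array or cardiomyocyte media replicate 2 (0.86 to 1.18, adjusted p up to 0.226).

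**Figure D4:**
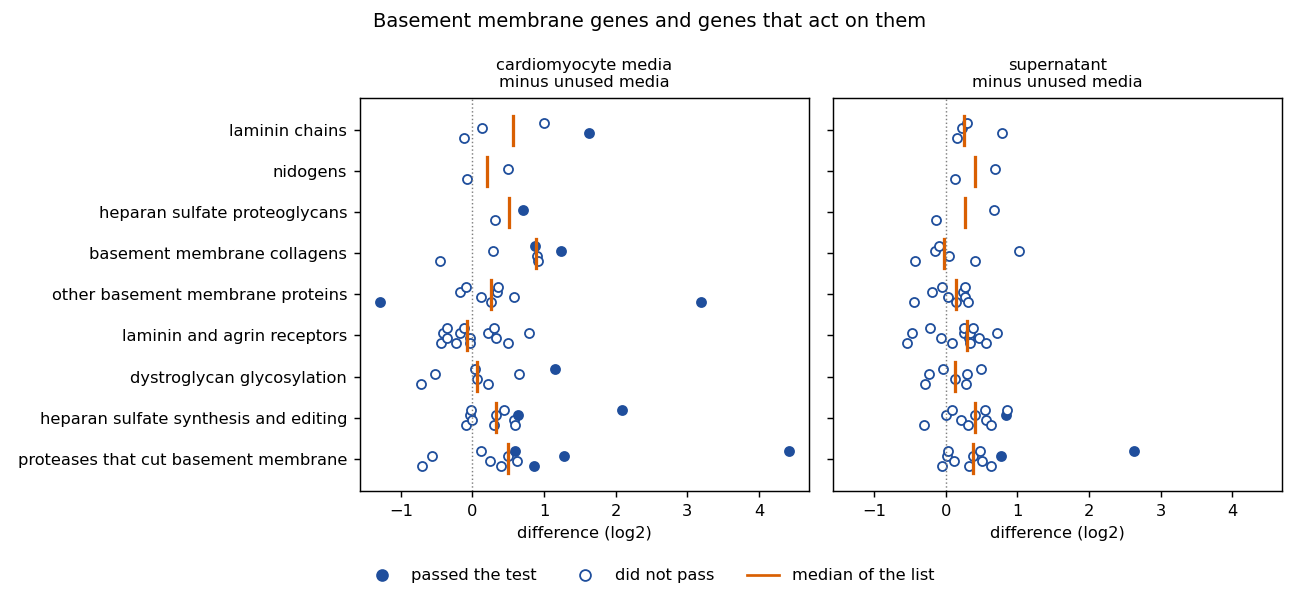
Log2 difference from unused media for cardiomyocyte media (left) and supernatant (right), one point for each tested gene of 9 lists, filled where the gene passed the test, with a vertical bar at the median of the list. The 3 lists at the top hold the genes described first, and the points furthest to the right are Plau (4.42 and 2.63 in the panels) and Fbln1 (3.19, left panel).

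Over the 15 tested basement membrane genes outside the 10 described here, 3 rose and 1 fell with cardiomyocyte media (of all genes, 4.01% and 4.36%), with a median of 0.34. With the supernatant 0 passed against unused media, with a median of 0.05, and 2 were lower than with cardiomyocyte media, with a median of -0.24. For the 8 genes described first the corresponding medians were 0.40, 0.26 and 0.00. Markers of other cells that make basement membranes were also read. Endothelial markers numbered 9 with a probe, of which 7 were detected on no array with the supernatant, 6 on none with cardiomyocyte media and 6 on none with unused media. Emcn, Pecam1, Kdr, Tie1 and Vwf were undetected in all groups, while Tek was detected only with cardiomyocyte media and Cdh5 only with unused media. Detected on all arrays of a group were 1 marker with the supernatant, 2 with cardiomyocyte media and 1 with unused media. The summed signal of the endothelial markers was 137 on both arrays with the supernatant, 151 to 158 with cardiomyocyte media and 159 to 188 with unused media. Of 6 epithelial markers with a probe, 4 were detected on no array with the supernatant, 4 on none with cardiomyocyte media and 5 on none with unused media, and the sums were 72.0 to 99.9, 62.0 to 84.3 and 73.9 to 95.8 in these groups. Schwann cell markers had 4 probes and a larger sum, 1339 to 1749 with the supernatant, 1292 to 1722 with cardiomyocyte media and 1745 to 2133 with unused media, with 2 of the 4, Mag and S100b, detected on no array of any group. Only 1 of the 4 was detected on all arrays with the supernatant, 1 with cardiomyocyte media and 2 with unused media. The sum is therefore not a reading of the whole list. Only 3 endothelial, 2 epithelial and 2 Schwann cell markers came through the detection filter and were tested, and none of them passed in any comparison. Of 13 tested fibroblast markers 2 rose and 0 fell with cardiomyocyte media, with a median of 0.03 and 7 values above 0. Lum, a small proteoglycan of collagen fibrils, rose by 1.56 (adjusted p = 5.46e-04) and the collagen gene Col3a1 by 1.19 (adjusted p = 9.41e-04). With the supernatant 1 rose and 1 fell against unused media (0.732% and 1.44% of all genes), with a median of 0.04. Col3a1 rose (1.05, adjusted p = 0.0136) and S100a4, a calcium-binding protein, fell (-1.98, adjusted p = 0.00420). Between the supernatant and cardiomyocyte media 0 were higher and 2 lower (1.76% and 3.14% of all genes), S100a4 (-1.55) and Lum (-0.99). Without either supernatant array the calls of Col3a1 and S100a4 against unused media and of Lum against cardiomyocyte media were lost (adjusted p up to 0.185), and that of Lum also without cardiomyocyte media replicate 2 or 3. With the 2 detected probes of Col3a1 averaged, neither of its calls against unused media held (1.05 with cardiomyocyte media, adjusted p = 0.148, and 1.27 with the supernatant, adjusted p = 0.294), and on chip 1 alone neither did (1.13, adjusted p = 0.0782, and 1.14, adjusted p = 0.165). With the replicate number as a block the call with the supernatant was lost as well (1.01, adjusted p = 0.0532). The part of these markers in the values of the basement membrane genes was not tested.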

How the data were processed

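Total RNA of NIH 3T3 fibroblasts was hybridised to 8 Illumina MouseRef-8 bead arrays on 2 chips. The authors exported from BeadStudio (3.3 per the submitters' processing notes) each probe's mean intensity without normalization, and with it a detection p-value. A further deposited table of intensity values, background-subtracted and spline-normalized by the authors, holds negative values and served only as an alternative. Here, in R 4.3.3 with limma 3.58.1, background was removed by normexp through the detection p-values, 16 was added, and arrays were quantile normalized before log2. Gene names were those of 23978 of 25697 probes, 8 of them updated through RefSeq tables of GRCm38.p6. A probe had to be detected (p under 0.05) on 2 or more arrays, and where a gene had several, the brightest was used, which left 8885 genes. All 8 arrays entered one limma model with a coefficient per group and empirical Bayes moderation, and p-values were adjusted by Benjamini-Hochberg within a comparison. The model was tested on simulated data, with 200 genes changed and every value drawn independently with the gene's own mean and spread. No chip difference or noisier array was simulated, so the counts below are not error rates of the real arrays. For cardiomyocyte against unused media, 60 of 100 true log2 changes of 1 were recovered. That number was 62 for the supernatant against unused media and 53 for the supernatant against cardiomyocyte media. Of 100 changes of 2, 96, 95 and 96 were recovered, and 8, 3 and 8 unchanged genes were called. Many differences of 1 or less could thus be missed. In the paper, this deposit is listed as the arrays of cardiomyocytes given hyaluronan and a different one as the fibroblast arrays; here the sample labels, which name fibroblasts, were followed. With 2 arrays the supernatant is measured less precisely, and array number limits every value.

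The 10 genes and all lists were chosen with earlier results of these data known. Named are the 10 genes, the 3 tested genes most correlated with each that passed, and from each other list the 3 called genes with the smallest p per comparison. Exceptions are marked in the text. Alternatives concerned background (none, or 50 added), normalization (cyclic loess, median scaling, the authors' values), filter (none, or all arrays), probes (averaged, or each tested), model (trend and robust, array weights, compared groups only, chip or replicate number as a block, fixed or, for chip, random), chip 1 alone, a fold of 1.5 as well, and the omission of single arrays. A lone array left in a group was assumed to vary as the others do.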

Additional observations from a re-analysis of the deposited data

How the results depend on the processing

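Over the 8 tested genes and 3 comparisons, 550 values under an alternative kept their direction and their side of the threshold, 7 calls were lost, 19 were gained and 21 values, none of them called, changed sign. With cardiomyocyte against unused media, 743 genes passed, 2 of them among the 8. These counts were 480 with median scaling, 1624 and 4 with array weights, 1 of the 8 with chip as a block, and 173 and 0 on chip 1 alone. Leaving out an array gave 375 to 1448 genes, and 1 to 3 of the 8. With the supernatant against unused media 193 and 0 passed. All genes numbered 63 with median scaling and 0 on chip 1 alone, where 1 array of the supernatant is left, and 0 to 242 without single arrays. Of the 8, 2 passed without background correction (Hspg2 and Nid2), and 1, Hspg2, did with an offset of 50, no detection filter, detection on all arrays, trend and robust settings, and array weights. Between the supernatant and cardiomyocyte media 435 and 0 passed. All genes numbered 258 with median scaling, 37 on chip 1 alone and 159 to 482 without single arrays, and 1 of the 8 (Lama2) passed with array weights (-0.97, adjusted p = 0.0324) and without cardiomyocyte media replicate 1 (-1.07, adjusted p = 0.0338), against 0 to 1 over all omissions. With cardiomyocyte media Nid2 passed with array weights (adjusted p = 0.0438).

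Signs changed for values near 0. With cardiomyocyte media Lamb2 was 0.16 and Nid1 0.20 with median scaling, Lamb1 was -0.016 and Nid1 0.051 with array weights, and without single arrays Lamb1 ranged between -0.028 and 0.28, Lamb2 between -0.30 and 0.057 and Nid1 between -0.22 and 0.046. With the supernatant Agrn was 0.20 with median scaling, Nid1 was -0.0080 with chip as a block and -0.053 on chip 1, and without single arrays Nid1 ranged between -0.053 and 0.33 and Lamc1 between -0.025 and 0.58. Between the supernatant and cardiomyocyte media Lamb1 was -0.0075 with chip as a block and -0.11 on chip 1, and without single arrays Lamb1 ranged between -0.12 and 0.13 and Hspg2 between -0.090 and 0.034. The cause of these changes was not tested.

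The replicate numbers were not taken to pair arrays, since deviations of unused media arrays correlated with those of same-numbered arrays of the treatments at -0.18 to -0.09. Between the treatments same-numbered arrays, which also share a chip, correlated at 0.71 and 0.49, and supernatant replicate 2 and cardiomyocyte media replicate 3, of the same chip, at 0.46. The 2 supernatant arrays deviate from their mean by equal and opposite amounts. Their correlations therefore mirror each other (0.71 and -0.71 with cardiomyocyte media replicate 1) and are not independent. With the replicate number as a block 731 genes and 2 of the 8 passed with cardiomyocyte media, 97 and 0 with the supernatant, and 342 and 0 between the treatments, where Lamb1 was -0.022 and Hspg2 0.012.

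Chip 2 held no array of unused media, so chip and medium are partly tied, and dim probes such as that of Lama2 depend most on the background correction.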
